A study of Mus musculus with 12 samples.

Results

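The genes described here are the translation factors and the aminoacyl-tRNA synthetases of mouse splenic CD4 T cells. They were taken by name, as rows that begin with Eif1 to Eif6 or Eef, or that have the form of a synthetase symbol such as Aars, Iars2 or Farsb, and that hold at least 120 estimated counts summed over the 12 libraries. Of 13404 rows, 67 had such a name and 66 reached the minimum, 42 factors and 24 synthetases. The row below the minimum was Eef1a2. All 66 passed the filter on low counts. Of the synthetases, 13 serve the cytosol and 11 the mitochondrion. Eif2c5 carries an older argonaute name and is a long noncoding RNA in GENCODE M21, so 41 of the 42 factor rows are protein-coding. Eef1a1, Eef2, Eif4ebp1, Eif4ebp2, Eif4g1, Gars and Kars were not analysed here.

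RNA sequencing of poly(A) RNA measured the expression of regulatory T cells (Treg, sorted as CD4+CD25+) and conventional T cells (Tconv, sorted as CD4+) from the spleens of C57BL/6 mice. There were 6 groups of 2 libraries: young wild type at 2 months, aged wild type at more than 18 months, and a set at 2 months labelled Dcaf1-deficient, for each cell type. The last are also called labelled Treg and labelled Tconv. DCAF1 is the substrate receptor of a ubiquitin ligase, and the study compared its loss with ageing. The allele, the Cre driver and the number of animals are not given in the sources used here. The labels do not say that libraries of a group came from separate animals, so p-values measure only the spread between these libraries.

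Translation starts when eIF2 brings the initiator tRNA to the small ribosomal subunit, eIF3 holds the subunit open and the eIF4 proteins load it onto the cap of an mRNA. The eEF1 complex then delivers each charged tRNA, and a synthetase for each amino acid charges those tRNAs, with a separate enzyme set for the ribosomes of the mitochondrion. In T cells this machinery expands on activation, and kinases that phosphorylate eIF2 slow it under amino acid shortage, infection or endoplasmic reticulum stress.

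Several libraries stood apart or went against their labels. Totals were 18358121 to 26852465 estimated counts, and levels are given in CPM, counts scaled to a common library size. The summed level of 8 macrophage markers was 137 and 4052 CPM in young Treg, then 10010 and 601 in aged Treg and 11810 to 14720 in labelled Treg, against 18.2 to 262 in young Tconv, then 71.7 to 76.4 in aged Tconv and 985 to 1054 in labelled Tconv. Aged Treg 1 lay closer to labelled Treg 1 (root mean square log2 difference over all genes 0.354) than to aged Treg 2 (1.29). Its level of Rpl29, a ribosomal protein gene, was 92.7 CPM, between 438 in aged Treg 2 and 31.5 to 43 in the labelled libraries. Foxp3, the defining Treg factor, was at 535 to 1986 CPM in the Treg libraries and 47.7 to 80.8 in young and labelled Tconv, but at 334 and 675 in the aged Tconv libraries. Il2ra, the gene of the sort marker CD25, was at 576 to 1337 CPM in the Treg libraries and 29.7 to 63.2 in the Tconv libraries, aged ones included. Cd4 and Cd3e were present in all 12. The gene named Vprbp, which is Dcaf1, was at 101 to 132 CPM in libraries labelled Dcaf1-deficient, 90.5 to 127 in aged ones and 128 to 147 in young ones. A count over the whole gene cannot show an exon deletion. In bulk RNA, fewer cells of a type and less RNA per cell cannot be told apart.

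Levels among the factors spanned more than those among the synthetases. Per kilobase of merged exon, the highest factor was Eif1, which selects the start codon, at 736 CPM per kilobase on average over the 12 libraries. It was followed by Eef1g at 625 and Eef1b2 at 524, subunits of the eEF1 complex, and by the cap-complex helicase Eif4a1 at 517. The lowest protein-coding factor was Eif5a2, the second eIF5A gene, at 4.19 CPM per kilobase. Among the synthetases Vars, for valine, was the highest at 81.7 CPM per kilobase, followed by Qars, for glutamine, at 74.3. The lowest was Mars2, the mitochondrial methionine enzyme, at 2.04, with 11.3 kilobases of merged exon. Without scaling by length it averaged 23.1 CPM, and the lowest synthetase was Mars at 9.01. Summed, factors took 1.12 to 1.39% of a library's counts, cytosolic synthetases 0.145 to 0.191% and mitochondrial synthetases 0.0457 to 0.0616%.

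**Figure D1:**
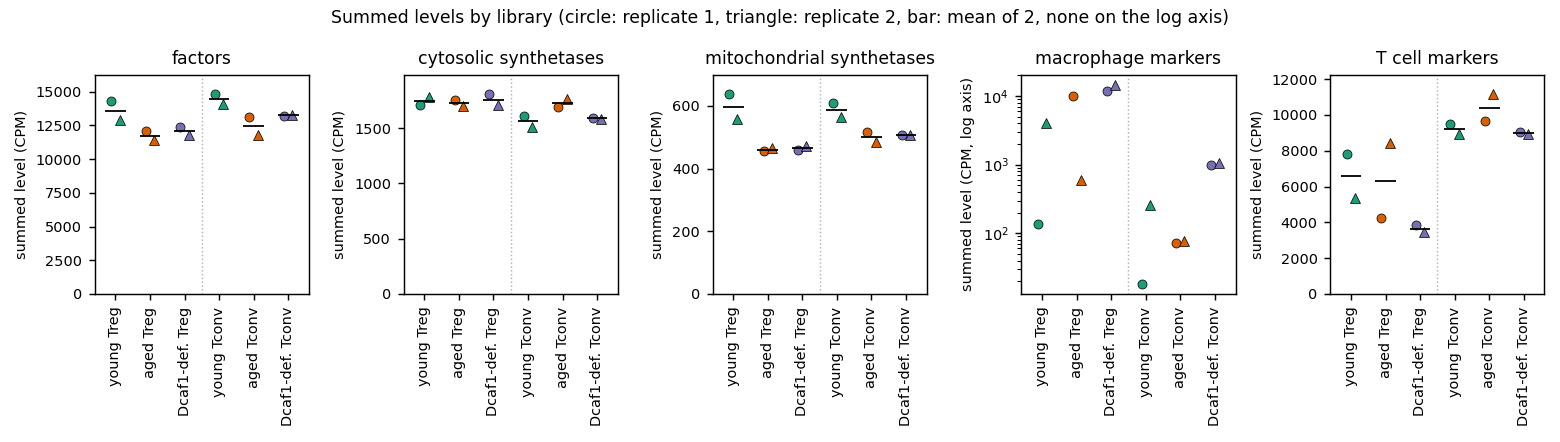
Summed levels (CPM, vertical axes, log scale for the macrophage markers) in each of the 12 libraries for the factors, the cytosolic and mitochondrial synthetases and the macrophage and T cell marker lists. The mitochondrial synthetases sit between 559 and 637 CPM in the 4 young libraries and between 457 and 517 in the other 8, while the macrophage markers differ between the libraries of a group.

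The first comparison set the 3 Treg groups against the 3 Tconv groups. Treg had more Eif4e3, Eif5a, Eif2ak2, Eif3b and Eif5b and less Eif1, Eif4a2, Eef1b2 and Eif4enif1 RNA, so that 9 of 42 factors differed, 5 higher and 4 lower. Among all 9495 genes tested, 22.5% differed by the same rule, an adjusted p under 0.05 in edgeR's quasi-likelihood test, 11.5% higher and 11% lower. The factors' share was therefore close to that of all genes, and their median log2 difference was 0.01, beside -0.00 over all genes. At an unadjusted p under 0.05 edgeR gave 15 factors and 13 synthetases, beside 39.2% of all genes, DESeq2 called 14 and 6, beside 33.8%, and limma 10 and 5, beside 20.5%.

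Eif4e3, a cap-binding relative of eIF4E, was at 53.5 and 51.8 CPM in young Treg, then 64.0 and 67.7 in aged Treg and 67.7 and 58.4 in labelled Treg. In Tconv it was at 36.4 and 41.4 in the young, then 33.0 and 19.6 in the aged, with 48.2 and 47.6 in the labelled libraries. Each Treg library was above each Tconv library, and the log2 difference was 0.72 (SE 0.13, edgeR adjusted p 0.0105). It lies on chromosome 6 (GENCODE M21 on GRCm38, 99625135 to 99666771).

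Eif5a helps the ribosome through difficult stretches of peptide and carries the modified residue hypusine. Its level was 739 and 731 CPM in young Treg, then 874 and 627 in aged Treg and 947 and 846 in labelled Treg. The Tconv libraries held 523 and 550 in the young, then 573 and 545 in the aged, with 605 and 594 in those labelled Dcaf1-deficient. Again the cell types did not overlap, with aged Treg 2 just above the highest Tconv library, and the log2 difference was 0.49 (SE 0.09, edgeR adjusted p 0.0118). Non-overlap in the higher direction was seen for 1.89% of all genes and for these 2 of the 42 factors.

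Eif1 went the other way. It was at 1052 and 794 CPM in young Treg, then 670 and 801 in aged Treg and 640 and 667 in labelled Treg, and at 1327 and 1216, 1344 and 967, and 1124 and 1081 in the same groups of Tconv. Young Treg 1 lay above aged Tconv 2 and every other Treg library lay below all Tconv libraries (log2 difference -0.62, SE 0.11, edgeR adjusted p 0.0114). Eif4a2, a helicase relative of Eif4a1, averaged 1024 CPM in Treg and 1477 in Tconv (-0.54, SE 0.14, edgeR adjusted p 0.0295), whereas Eif4a1 itself did not pass (0.15, adjusted p 0.201).

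Of the other factors that passed, Eif2ak2, the double-stranded RNA sensor PKR and 1 of the 4 eIF2 kinases, averaged 146 CPM in Treg and 103 in Tconv (0.49, SE 0.12, edgeR adjusted p 0.0291). The initiation factor subunits Eif5b and Eif3b were slightly higher in Treg (0.21 and 0.22, edgeR adjusted p 0.0254 and 0.0404). Eef1b2, the exchange subunit of eEF1, and Eif4enif1, which carries eIF4E into the nucleus, were lower (-0.33 and -0.30, edgeR adjusted p 0.0235 and 0.0233). Eef2k, the kinase of the elongation factor eEF2, reached 0.83 without passing (SE 0.27, edgeR adjusted p 0.0595). The cap-binding Eif4e was at 0.18 (adjusted p 0.0722), and Eif2ak1, Eif2ak3 and Eif2ak4 were at 0.13, 0.09 and 0.18 (adjusted p 0.121 to 0.739). Because Eif1, Eif5a, Eef1b2, Eef1g, Eif4a1 and Eif4a2 have close relatives or copies elsewhere in the genome, their counts depend on how reads were divided among these.

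The cytosolic synthetases also moved in opposite directions. Vars and Aars, for valine and alanine, were higher in Treg and Sars and Mars, for serine and methionine, were lower, 4 of 13. None was called among the 11 mitochondrial synthetases by edgeR, DESeq2 or limma. At an unadjusted p under 0.05 in edgeR, 4 of the 11 were lower, beside 39.2% of all genes in either direction. For the 24 synthetases together the count was 4, below the 22.5% of all genes.

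Vars (chromosome 17, 35000987 to 35016322) was at 346 and 419 CPM in young Treg, then 407 and 424 in aged Treg and 402 and 369 in labelled Treg. It was at 252 and 238 in young Tconv, then 380 and 354 in aged Tconv and 251 and 215 in labelled Tconv. Young and labelled Tconv lay below all Treg libraries, while aged Tconv lay among them (log2 difference over the groups 0.52, SE 0.07, edgeR adjusted p 0.00476).

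Sars was lower in every Treg library, at 177 to 207 CPM against 221 to 243 in Tconv (-0.25, SE 0.04, edgeR adjusted p 0.00792). It was the only synthetase whose cell types did not overlap, and 2.3% of all genes were non-overlapping in that direction. Mars was sparse, at 1.93 to 9.13 CPM in Treg and 5.66 to 17.2 in Tconv (-1.27, SE 0.34, edgeR adjusted p 0.0335). Aars, at 95.5 to 151 CPM in Treg and 81.7 to 149 in Tconv, was near the threshold (0.31, SE 0.09, edgeR adjusted p 0.0498), as was Wars, for tryptophan, which did not pass (0.26, SE 0.08, adjusted p 0.0520).

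Macrophage, B cell and erythroid markers moved with this comparison: all 8 macrophage markers, 6 of 7 B cell markers and 4 of 11 erythroid markers were called higher in Treg, and 7 of 11 T cell markers lower. The B cell sums were lowest in young Treg 1 and aged Treg 2 among the Treg libraries, at 87.9 and 117 CPM. The part of these markers in the calls was not tested. The factor count fell to 3 without young Treg 2, 3 without either Treg library labelled Dcaf1-deficient, 4 and 3 without young Tconv 1 and 2, and 2 and 3 without the Tconv libraries labelled Dcaf1-deficient, while the share of all genes called fell to 5.02 to 10.6%. The synthetase count fell to 1 or 2 without these same libraries. Without aged Treg 2 the counts were 14 factors and 8 synthetases, beside 30.9% of all genes, and without aged Tconv 2 they were 13 and 7, beside 27.5%. The members' counts thus moved in the same direction as that of all genes. A term for the tag in the sample titles (L3, L4 or L5, meaning not stated) left 2 factors, Eif4e3 and Eif2ak2, and 0 synthetases, beside 2.35% of all genes. Vars, Eif4e3 and Eif5a were called in each of the 12 fits that left out 1 library, Eif1 in 11 and Sars in 10, and the other 8 in 2 to 6.

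**Figure D2:**
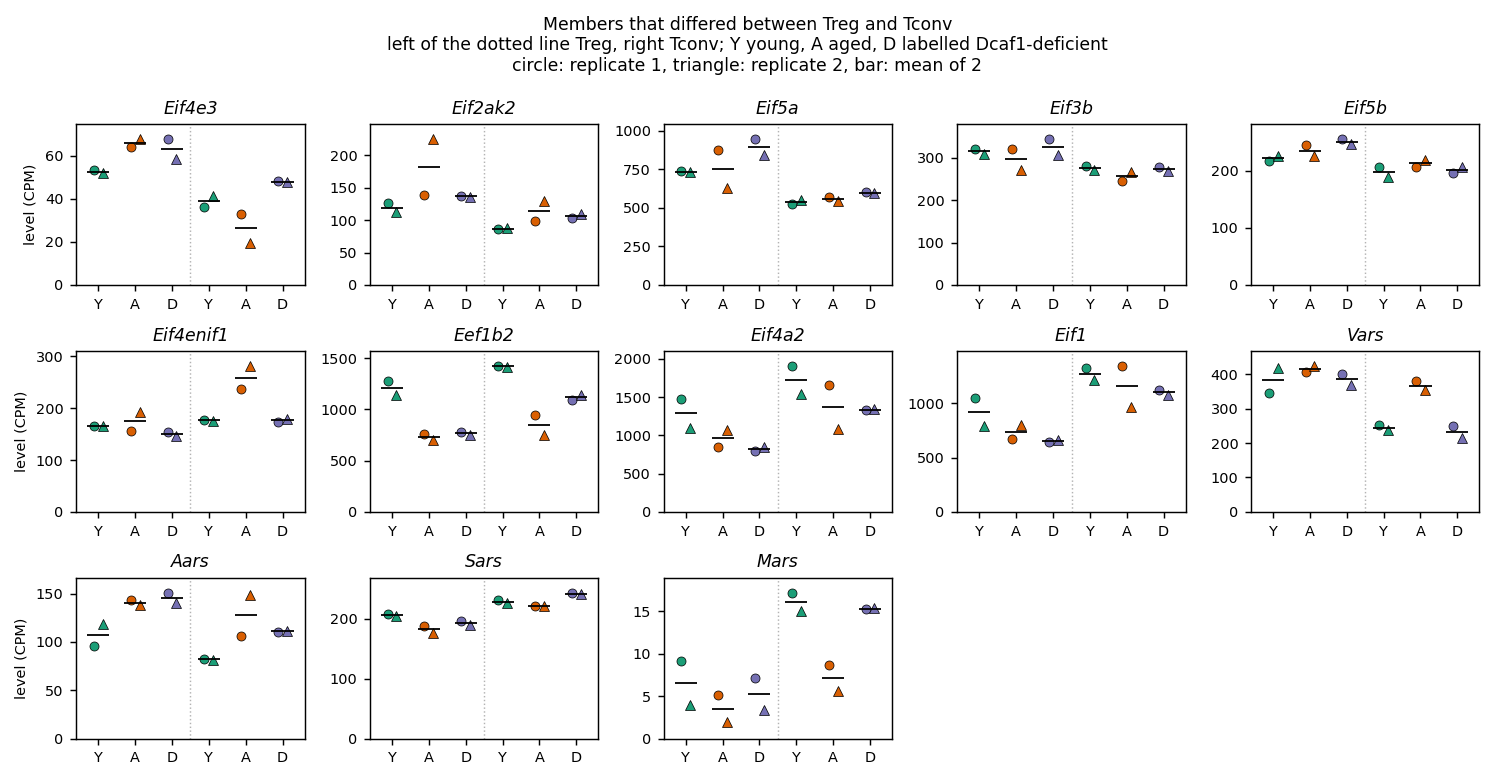
Level (CPM, vertical axes from 0) in each library of the 13 members that differed between Treg and Tconv, with replicates as circles and triangles and bars at the mean of 2. Eif4e3 and Eif5a are higher and Sars is lower in all 6 Treg libraries, and aged Tconv lies apart from the other Tconv groups in Eif4enif1, Eef1b2, Vars and Mars.

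The age comparison was made within each cell type. In Tconv, aged mice had less Eef1b2 and more Eif4enif1, Vars and Aars RNA than young mice, so that 2 of 42 factors and 2 of 24 synthetases passed. Over all genes 8.86% passed, 6.38% higher and 2.47% lower. At an unadjusted p under 0.05 there were 10 factors and 5 synthetases (28.1% of all genes), DESeq2 called 7 and 4 (21.5%) and limma 3 and 2 (9.67%). The 2 synthetases of limma were Vars and Mars2; Aars did not pass there (limma adjusted p 0.0606). In Treg edgeR called 0 of 9495 genes (0%), hence 0 members, and gave 8 factors and 9 synthetases at an unadjusted p under 0.05 beside 17.9% of all genes. For Treg DESeq2 called 4 factors (Eef1b2, Eif3f, Eef1g and Eif3m) and 1 synthetase (Qars), all lower, beside 7.91% of the genes it gave an adjusted p, and limma called 0 members and 0.0211% of all genes. The aged and labelled Dcaf1-deficient groups were each set against the same young libraries, so their values are given side by side without a comparison between them.

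The fall of Eef1b2 (chromosome 1, 63176825 to 63180486) was among the largest of the members. It was at 1425 and 1415 CPM in young Tconv, then 948 and 753 in aged Tconv and 1094 and 1140 in labelled Tconv. In Treg it was at 1278 and 1141 in the young, then 757 and 706.4 in the aged, with 784 and 747 in the labelled libraries. The young libraries were above the others of their cell type throughout. The log2 difference was -0.74 in aged Tconv (SE 0.13, edgeR adjusted p 0.0241), -0.72 in aged Treg (SE 0.13, adjusted p 0.126), -0.66 in labelled Treg (SE 0.13, adjusted p 0.131) and -0.35 in labelled Tconv (SE 0.13, adjusted p 0.461). The macrophage marker sums given above differed between these groups and within them, and their part in the Eef1b2 values was not tested.

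The means of the other eEF1 subunits were also below the young mean in each aged and labelled group. Eef1g, a structural subunit, was at 1452 and 1281 CPM in young Treg, then 1017 and 814 in aged Treg and 1105 and 1023 in labelled Treg, and at 1474 and 1371, 1114 and 908, and 1214 and 1213 in the same groups of Tconv. The groups did not overlap, but its log2 differences of -0.58 in aged Treg, -0.49 in aged Tconv, -0.36 in labelled Treg and -0.23 in labelled Tconv did not pass (edgeR adjusted p 0.159, 0.0839, 0.198 and 0.611). For Eef1d, another exchange subunit, they were -0.35, -0.32, -0.24 and -0.17 in that order. Non-overlap in the lower direction was found for 22.4%, 29.1%, 36.9% and 32.7% of all genes in these comparisons.

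The eIF3 subunits differed among themselves. Eif3f was at 581 and 544 CPM in young Treg, then 397 and 408 in aged Treg and 401 and 377 in labelled Treg. In Tconv it was at 540 and 560 in the young, then 492 and 436 in the aged, with 501 in each labelled library. Its log2 differences were -0.48 and -0.53 in aged and labelled Treg (edgeR adjusted p 0.126 and 0.131) and -0.25 and -0.13 in aged and labelled Tconv (adjusted p 0.145 and 0.630). DESeq2 called it in the first 3 of these (adjusted p 5.16e-06, 9.34e-07 and 0.0105). Eif3m was at -0.31, -0.41, -0.35 and -0.12 in the same order and Eif3i at -0.26, -0.12, -0.21 and -0.11, whereas Eif3c was at 0.07, 0.08, 0.11 and 0.09.

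RNAs of ribosomal proteins and of several elongation factors begin with a terminal oligopyrimidine tract, a C followed by pyrimidines at the start site, through which mTOR controls their translation. Among 51 members found in the RefSeq promoter table, a start of C with at least 4 further pyrimidines was annotated for 3 (5.88%), Eif3f, Eif2s3x and the noncoding Eif2c5, and it was annotated for 3.01% of 27018 genes. The search covered the gene's strand at the annotated start only. The 30 bases around the start are shown, 10 before and 20 after (RefSeq, GRCm38.p6). They are given for Eif3f and for the X-linked and Y-linked genes of eIF2 gamma, described next. Capitals mark the pyrimidine run downstream of the annotated start. In Eif3f and Eif2s3x further pyrimidines, in lower case, stand directly before the capitals. In Eif2s3y the run begins 1 base after the annotated start, so it did not count as a match. GENCODE begins its Eif3f gene at 108934417, inside the run. It begins Eif2s3x at 94212862 and Eif2s3y at 1010543, both upstream of the windows shown, so a run at the start depends on the annotation used.
Eif3f (chr7:108934405-108934434, plus strand): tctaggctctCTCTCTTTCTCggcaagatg
Eif2s3x (chrX:94212632-94212661, minus strand): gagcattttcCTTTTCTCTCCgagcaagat
Eif2s3y (chrY:1010585-1010614, plus strand): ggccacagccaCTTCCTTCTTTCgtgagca

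Eif2s3x and Eif2s3y encode eIF2 gamma, the subunit that binds GTP and the initiator tRNA, from the X and the Y chromosome. Eif2s3y was at 201 and 175 CPM in young Treg, then 148 and 0.0460 in aged Treg, 143 and 0.126 in labelled Treg, 200 and 201 in young Tconv, then 161 and 0.0475 in aged Tconv and 0.195 and 0.289 in labelled Tconv. The 5 values under 1 CPM are close to the level of 3 counts, which is 0.105 to 0.167 CPM across the libraries. Eif2s3x was at 305 and 266, 273 and 371, 256 and 378, 302 and 278, 228 and 378, and 401 and 421 CPM in the same order. The 5 libraries that nearly lacked Eif2s3y were the 5 highest in Eif2s3x. They also held 1263 to 2018 CPM of Xist, the RNA of the inactive X, against 1.37 to 2.94 in the other 7.

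The young libraries all carried Eif2s3y and both Tconv libraries labelled Dcaf1-deficient lacked it, so sex and label cannot be told apart in Tconv. Aged Treg 2, aged Tconv 2 and labelled Treg 2 lacked it too, so sex is partly mixed with age and with the Treg label. Aged Treg 2 and aged Tconv 2 are also the libraries tagged L3, so sex and tag cannot be told apart within the aged groups. The fitted differences of Eif2s3y were -1.35 in aged Treg, -1.39 in labelled Treg and -9.66 in labelled Tconv, none of them called by edgeR (adjusted p 0.823, 0.753 and 0.497). DESeq2 called the last (adjusted p 0.0295), the only member it called there.

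**Figure D3:**
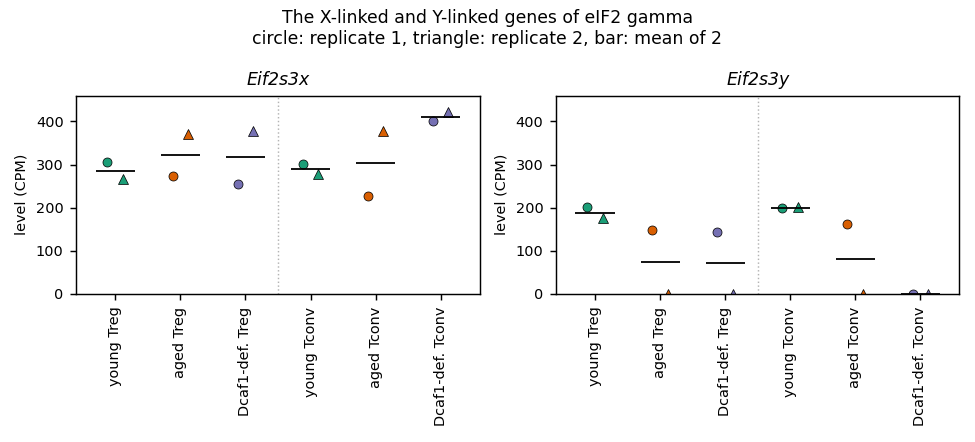
Levels (CPM, vertical axes from 0) of Eif2s3x and Eif2s3y in each library, with circles for replicate 1, triangles for replicate 2 and bars at the mean of 2. Eif2s3y is at 143 to 201 CPM in 7 libraries and below 1 in the other 5, which are the highest in Eif2s3x.

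Of the 9 genes of eIF2 and its exchange factor eIF2B, Eif2s3y among them, 7 were below both young libraries in aged Tconv, where 29.1% of all genes did not overlap in that direction. None passed edgeR's test there, 2 had an unadjusted p under 0.05 (28.1% of all genes), and DESeq2 (21.5%) and limma (9.67%) called 0. Eif2a, which encodes eIF2A, a separate single-chain factor, was at -0.28 in aged Tconv (edgeR adjusted p 0.101) and was called by DESeq2 (adjusted p 0.0270). Eif2s1, the alpha subunit that the eIF2 kinases phosphorylate, was at -0.25 in aged Tconv (edgeR adjusted p 0.149) and at 0.02, 0.08 and -0.07 in aged Treg, labelled Treg and labelled Tconv. Among the kinases, Eif2ak2 was at 126 and 112 CPM in young Treg beside 139 and 225 in aged Treg, a log2 difference of 0.61 that did not pass (SE 0.22, edgeR adjusted p 0.219) and was 0.22 without aged Treg 2. An interferon response list of 13 genes summed to 7700 CPM in aged Treg 2, 3551 in aged Treg 1 and 3165 to 3579 in young Treg. The part of that response in the Eif2ak2 value was not tested. In labelled Treg and labelled Tconv Eif2ak1, the heme-regulated kinase, was at 0.32 and 0.31 (SE 0.12 for each, edgeR adjusted p 0.165 and 0.461), above both young libraries in each cell type.

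Eif4enif1 (chromosome 11, 3202392 to 3244588) rose in aged Tconv. It was at 178 and 176 CPM in young Tconv, then 236 and 282 in aged Tconv and 174 and 179 in labelled Tconv, while the 6 Treg libraries held 146 to 193. The aged Tconv libraries stood above all 10 others (log2 difference 0.55, SE 0.12, edgeR adjusted p 0.0349), and the aged Treg value was not called. Eef2k, whose product halts elongation, was at 10.7 and 18.9 CPM in young Tconv beside 23.1 and 37.0 in aged Tconv (1.03, SE 0.47, adjusted p 0.198). It was at 20.9 and 35.8 in young Treg and 57.9 and 55.0 in labelled Treg (0.99, SE 0.47, adjusted p 0.225), so the spread between the young libraries was as large as much of the difference. Eif4e, Eif4a1, Eif5a, Eif5a2 and Eif6 did not pass in any age or label comparison. Eif6, which keeps the large ribosomal subunit from joining too early, was at 0.30 in labelled Treg (SE 0.12, edgeR adjusted p 0.181).

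The synthetases that rose in aged Tconv were Vars and Aars. For Vars the aged libraries, at 380 and 354 CPM, stood above young Tconv at 252 and 238 (0.58, SE 0.12, edgeR adjusted p 0.0328), and the difference was 0.12 in Treg, where the young libraries already held 346 and 419. Aars, for alanine, was at 82.6 and 81.7 CPM in young Tconv, then 106 and 149 in aged Tconv and 111 and 112 in labelled Tconv. It was at 95.5 and 119 in young Treg, then 143 and 138 in aged Treg and 151 and 141 in labelled Treg. The young libraries were the lowest of their cell type, and the log2 difference was 0.63 in aged Tconv (SE 0.16, edgeR adjusted p just under 0.05), 0.39 in aged Treg and 0.44 in each group labelled Dcaf1-deficient (adjusted p 0.260, 0.164 and 0.461). Wars was at 78.8 and 80.0 CPM in young Tconv beside 111 and 108 in labelled Tconv (0.47, SE 0.14, edgeR adjusted p 0.421).

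The genes called in aged Tconv came with a change in Treg markers. The summed level of 6 Treg markers was 2354 to 3511 CPM in the aged Tconv libraries and 427 to 508 in young Tconv. Of the 6, 3 were called higher. Il2ra, also on that list, was at 43.1 and 29.7 CPM in aged Tconv beside 31.8 and 63.2 in young Tconv. Of the 4 called members, Eif4enif1 was higher in aged Tconv than in any Treg library. The aged Tconv levels of Vars, Aars and Eef1b2 lay within the Treg range. The part of the Treg markers in the 4 calls was not tested.

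The calls in aged Tconv depended on the libraries used. Leaving out young Tconv 1 or 2, aged Tconv 2 or any library labelled Dcaf1-deficient left 0 factors and 0 synthetases called, beside 0 to 1.78% of all genes. Leaving out young Treg 1 or 2 left 1 of each, Eef1b2 and Vars, beside 5.85 and 5.88%, and leaving out aged Tconv 1 gave 8 and 4, beside 24%. The call was kept in 5 of the 12 fits that left out 1 library for Eef1b2 and Vars, in 3 for Eif4enif1 and in 1 for Aars. Within the tag L5, young Tconv 2 and aged Tconv 1 could be set against each other with 1 library a side. Eef1b2 was at 1415 and 948 CPM in them, Vars at 238 and 380, Eif4enif1 at 176 and 236 and Aars at 81.7 and 106. Aged and young Tconv did not overlap for any of these genes, so the directions in this pair were fixed in advance. The pair is therefore no separate evidence for the calls and cannot show what part the tag had. In Treg, edgeR called 2 factors without aged Tconv 1 or 2 (1.67 and 1.66% of all genes), and 1 factor and 1 synthetase without aged Treg 1 (4.44%).

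Of the synthetases called in aged Tconv, Aars was matched in the RefSeq promoter table and Vars was not. The C/EBP-ATF response element, read by ATF4 when amino acids are short, was searched as TGATGNAAN on both strands of the 250 bases before and 50 after each RefSeq start. It was found for 5 of 51 members (9.8%), Aars, Iars, Yars, Eef2k and Eif2s3x, and for 4.49% of 27018 genes. The E box CACGTG, the site of Myc, was found for 11 of 51 (21.6%) and 8.09% of all genes, Aars, Iars and Eif5a among them. Aars is the called synthetase of these and has 2 matches. Windows of 25 bases around the matches are given with the element in capitals, on the strand of the gene. In Aars and Iars the element reads on the opposite strand. GENCODE begins the Aars, Iars and Yars genes upstream of these windows, at 111033144, 49682100 and 129189760.
Aars upstream (chr8:111033721-111033745, plus strand): tcttgagcATTGCATCAgccgagcc
Aars at the start (chr8:111033842-111033866, plus strand): cgggtcacTTTTCATCAgagcgctc
Iars (chr13:49682128-49682152, plus strand): ctgtcagtATTGCATCAcctccaga
Yars (chr4:129189898-129189922, plus strand): agctcagcTGATGCAACccgacggg

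Iars, for isoleucine, and Yars, for tyrosine, did not follow Aars closely. Yars was at 56.8 and 59.2 CPM in young Treg beside 82.4 and 76.2 in labelled Treg (0.45, SE 0.13, edgeR adjusted p 0.138), but at 55.2 and 53.5 in young Tconv beside 52.7 and 59.3 in aged Tconv. Iars was at 137 and 122 CPM in young Tconv beside 116 and 110 in aged Tconv. A match is a description of letters and not a binding site.

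Mitochondrial synthetases were lower in each aged and labelled group without an edgeR call for any of them. In log2 difference, 10 of 11 were below 0 in aged Treg, 11 of 11 in aged Tconv, 10 of 11 in labelled Treg and 11 of 11 in labelled Tconv. Their medians were -0.34, -0.25, -0.26 and -0.21, beside 0.02, -0.00, -0.01 and -0.00 over all genes and -0.04, -0.01, 0.08 and -0.06 for the cytosolic synthetases. Groups did not overlap, in the lower direction, for 8, 5, 9 and 8 of the 11. The shares for all genes were the 22.4%, 29.1%, 36.9% and 32.7% given above.

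Summed over the 11 genes, the level was 637 and 559 CPM in young Treg, then 457 and 465 in aged Treg, 460 and 471 in labelled Treg, 609 and 565 in young Tconv, then 517 and 485 in aged Tconv and 507 and 508 in labelled Tconv. The 4 young libraries were above the other 8. The part of the macrophage markers, and of the dividing-cell markers given below, in these sums was not tested. The members and the young libraries are shared by these comparisons, so they are not independent of each other. Aged Treg 1 was also closer to labelled Treg 1 over all members of both classes (root mean square log2 difference 0.123) than labelled Treg 2 was (0.191). The aged and labelled Treg values are thus not separate observations of a fall.

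Mars2, which charges mitochondrial tRNA with methionine, was at 30.9 and 31.2 CPM in young Treg, then 21.2 and 13.5 in aged Treg and 20.9 and 21.2 in labelled Treg. In Tconv it was at 33.2 and 31.8 in the young, then 19.4 and 12.4 in the aged, with 18.8 and 22.4 in the labelled libraries. No young library overlapped another group. Its log2 differences were -0.84 in aged Treg, -1.03 in aged Tconv, -0.56 in labelled Treg and -0.66 in labelled Tconv (SE 0.27 for each, edgeR adjusted p 0.192, 0.0541, 0.230 and 0.477), and DESeq2 and limma called the aged Tconv value (adjusted p 0.00476 and 0.0448).

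Vars2, for valine, was at 68.6 and 56.8 CPM in young Treg, then 38.5 and 48.04 in aged Treg and 37.0 and 41.2 in labelled Treg (-0.54 and -0.68, SE 0.18, edgeR adjusted p 0.198 and 0.133). Ears2, for glutamate, was at 25.3 and 26.1, 14.3 and 19.2, and 17.55 and 16.5 CPM in the same groups (-0.62 and -0.59, SE 0.23, adjusted p 0.237 and 0.176). The young Treg libraries were above the rest in each. Tars2, for threonine, was at 177 and 118 CPM in young Treg beside 87.8 and 87.4 in labelled Treg (-0.75, SE 0.23, edgeR adjusted p 0.141), so young Treg 1 carried much of its difference.

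**Figure D4:**
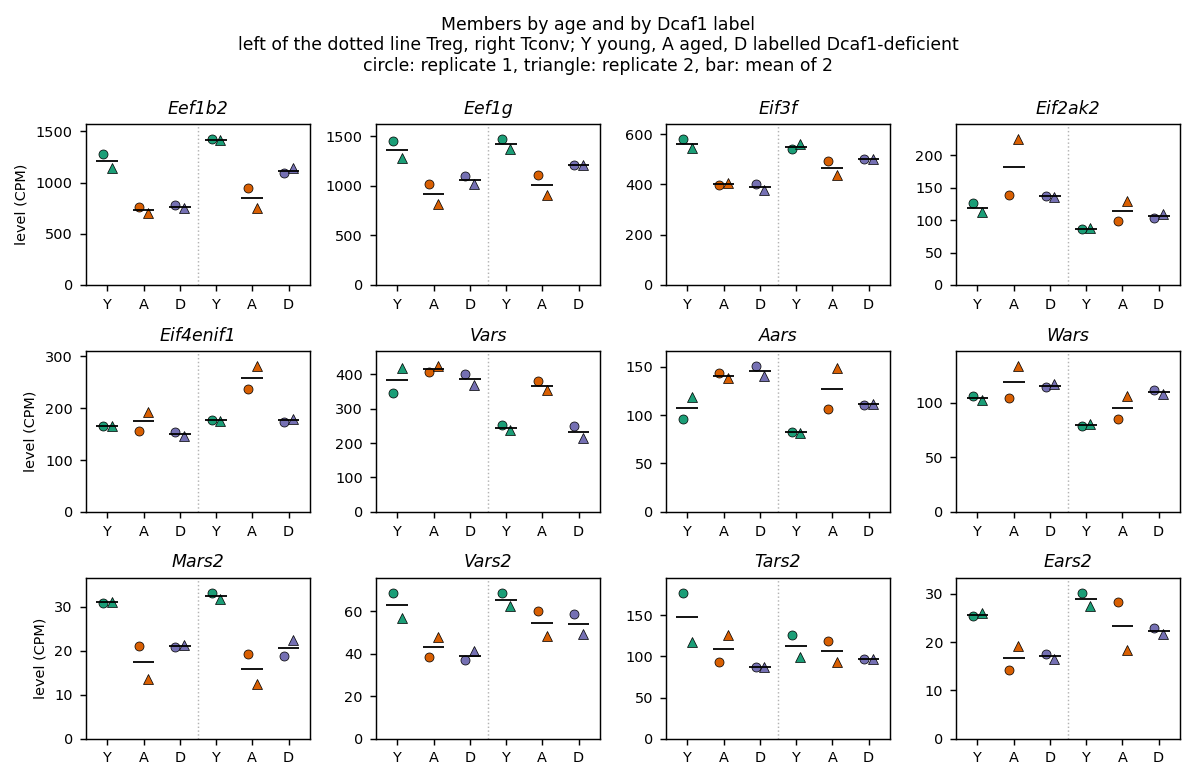
Level (CPM, vertical axes from 0) in each library of 12 members named in the age and label comparisons, with replicates as circles and triangles and bars at the mean of 2. Eef1b2, Eef1g, Eif3f and Mars2 are highest in the young libraries of each cell type, Aars is lowest there, and Eif4enif1 stands apart in aged Tconv.

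The label comparisons gave no calls in edgeR. For labelled Treg against young Treg, edgeR called 0 of 9495 genes (0%) and 8 factors and 7 synthetases had an unadjusted p under 0.05, beside 24.8% of all genes. DESeq2 called 3 factors (Eif3f, Eef1b2 and Eif3m, all lower) and 5 synthetases (among them Vars2, Tars2 and Qars, lower, and Yars, higher), beside 13.8% of all genes, and limma called 0. Eif4a2 was at 1478 and 1099 CPM in young Treg beside 793 and 845 in the labelled libraries (-0.65, SE 0.24, edgeR adjusted p 0.164). The labelled libraries lay below the young ones.

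For labelled Tconv, edgeR again called 0 genes (0%), with 2 factors and 3 synthetases at an unadjusted p under 0.05, beside 10% of all genes. DESeq2 called 1 factor and 0 synthetases, beside 2.54% of all genes, and limma 0 members, beside 0.0105%. Yars2, the mitochondrial tyrosine enzyme, was at -0.35 (SE 0.17, edgeR adjusted p 0.522), and the cytosolic Yars at 0.17.

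All 11 T cell markers had a log2 difference below 0 in labelled Treg, with summed levels of 3436 to 3847 CPM against 5354 to 7826 in young Treg. In labelled Tconv the sums were 8932 to 9031 against 8907 to 9493. The summed level of 9 dividing-cell markers was 1374 to 1559 CPM in labelled Treg against 443 to 579 in young Treg, and 996 to 1022 in labelled Tconv against 414 to 484 in young Tconv. Erythroid markers summed to 1708 to 1714 CPM in labelled Tconv against 142 to 286 in young Tconv, and to 5656 to 12680 in labelled Treg against 208 to 1755 in young Treg. The part of these markers in the label comparisons was not tested. Without young Treg 2 and aged Treg 1, edgeR called 4 factors and 5 synthetases in labelled Treg, beside 22.8% of all genes. Without aged Tconv 1 or 2 it called 2 factors there, beside 1.57 and 1.62%. Without the L3 libraries, aged Treg 2 and aged Tconv 2, it called 5 factors and 8 synthetases in labelled Treg, beside 20.6%, and 1 synthetase in labelled Tconv, beside 1.37%.

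**Figure D5:**
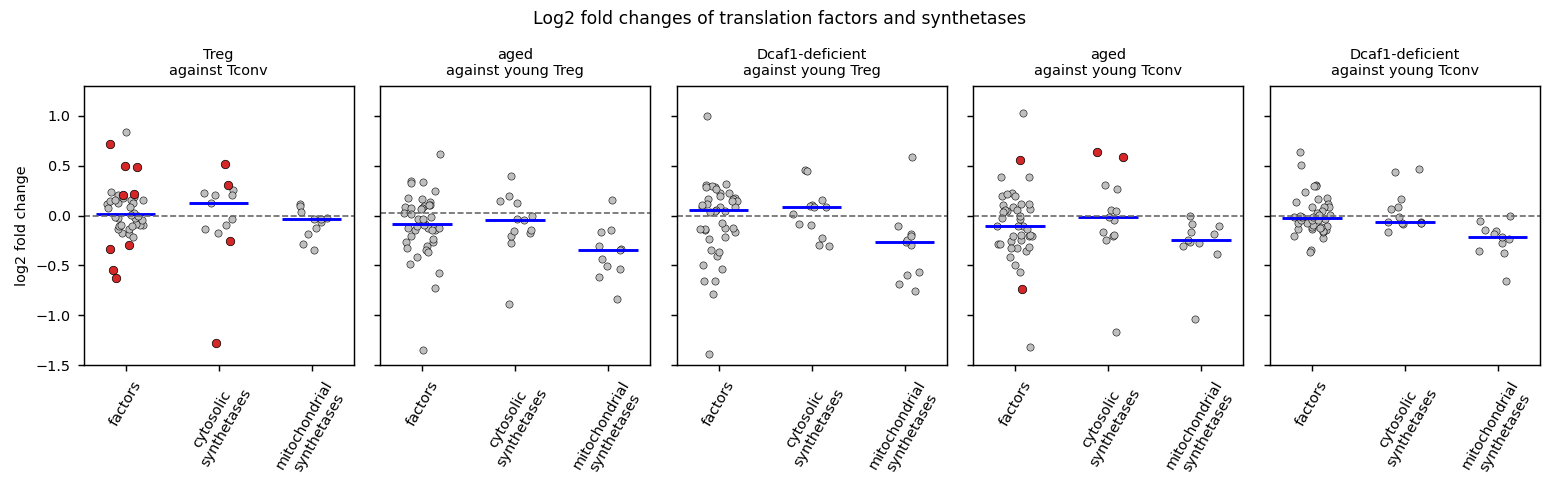
Log2 differences (vertical axis) of each factor and synthetase in 5 comparisons, red where edgeR's adjusted p is under 0.05, with blue bars at the class median and a dashed line at the median of all genes. The mitochondrial synthetases lie mostly below 0 in the 4 comparisons with young libraries; Eif2s3y lies outside the axis for Treg against Tconv (2.65) and for labelled Tconv (-9.66).

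Whether age or label acted differently in the cell types was tested as an interaction. By edgeR 0 genes (0%) were called for age, with 3 members at an unadjusted p under 0.05 beside 6.48% of all genes, and 0 for the label, with 1 member beside 2.74%. DESeq2 called 134 genes for age (1.47%) and 1 for the label (0.0105%), none of them members, and limma called 0 members, beside 0.0105% and 0% of all genes. The 3 members for age were Eif4e3 (aged minus young in Treg minus the same in Tconv 0.89, SE 0.31, edgeR adjusted p 0.636), Eif4enif1 (-0.48, SE 0.17, adjusted p 0.664) and Vars (-0.46, SE 0.17, adjusted p 0.693). The rise of Eif4enif1 and Vars in aged Tconv is thus not shown to differ from aged Treg. Without aged Tconv 1, 1 member was called for age, beside 1.15% of all genes. For the label the member was Eif3f (-0.40, SE 0.14, adjusted p 1.00).

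Genes that work with these factors, taken from lists, were read against the 22.5% of all genes called in Treg against Tconv. Of 18 other translation genes 4 passed, a share close to it: the helicase Ddx3x (-0.43), Tpt1, a classic oligopyrimidine RNA (-0.57), and the GCN2 activator Gcn1l1 (-0.21) were lower, and Larp1, which binds oligopyrimidine starts, was higher (0.23), with edgeR adjusted p of 0.0118, 0.0168, 0.0356 and 0.0497. Of 14 kinases and phosphatases of translation control 2 passed, beside 11% of all genes lower, both lower in Treg: the S6 kinase Rps6kb2 (-0.37, edgeR adjusted p 0.0123) and Ppp1r15a, the subunit that reverses eIF2 phosphorylation (-1.18, adjusted p 0.0161). Of 9 mitochondrial translation factors Ict1, a release factor, passed (-0.67, edgeR adjusted p 0.00241).

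Targets of ATF4 passed in 6 of 16 cases, 5 of them higher in Treg, beside 22.5% of all genes called and 11.5% called higher. They included the asparagine synthetase Asns (2.02, edgeR adjusted p 0.0139), the serine enzyme Phgdh (0.59, adjusted p 0.0346) and the proline enzyme Aldh18a1 (0.37, adjusted p 0.00529), with a list median of 0.29. Of 12 genes of Myc and ribosome biogenesis 4 passed, all higher in Treg, beside the same 11.5%, with Myc itself at 0.85 (edgeR adjusted p 0.00356) and the nucleolar Ncl at 0.38 (adjusted p 0.0133). In aged Tconv, where 8.86% of all genes were called, Myc was instead lower (-0.91, edgeR adjusted p 0.0307). So was Tarsl2, a threonine synthetase relative (-0.84, edgeR adjusted p 0.0397), and the release factor gene Gspt2 was higher (4.79, edgeR adjusted p 0.0248). Gspt2 averaged 0.380 CPM in young Tconv and 10.7 in aged Tconv, so the size of its difference rests on few counts in the young libraries. The macrophage, B cell and T cell markers given above moved with the Treg values.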

How the data were processed

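The authors deposited estimated counts per gene, made with Salmon 0.9.1 on mm10 per the submitters' processing notes, and log2 expression values scaled with DESeq2 per the same notes, whose exact transform is not given in the sources used here. Of the estimated counts, 23.5% were whole. After rounding they were tested with edgeR 4.0.16 in R 4.3.3 (TMM scaling, filterByExpr, 9495 genes tested, quasi-likelihood test) in 1 fit of 6 group means over 12 libraries, with 6 residual degrees of freedom. Adjustment was by Benjamini-Hochberg over all genes in each of 7 comparisons, with a threshold of 0.05. Groups came from the sample labels. DESeq2 1.42.0, limma 3.58.1 on the deposited log2 values, RLE scaling, no filter, a replicate block, a tag term, fits of a cell type alone and fits without some libraries were alternatives. The tests were checked on simulated counts for the sign and size of log2 changes of 3, larger than most differences given here. Other cell types, sex and tag were not simulated, so the check does not bear on single calls. Totals of 18358121 to 26852465 estimated counts make 3 counts equal to 0.105 to 0.167 CPM, counting error only.

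Members and lists were chosen with earlier results of these data known. Named are called members (up to 10 per class and direction); where a class had no call, the 3 largest rises and falls among members without overlap between groups and a mean of 4 CPM or more, as values; a list of genes always named (Eef2k, Eif4e, the eIF2 kinases, Eif5a, Eif5a2, Eif6, Eif4a1, Eif2s1, Wars and Aars among those in the table); the highest and lowest level per length; and up to 4 called genes of each other list. Eef1g, Eef1d, Eif2s3x, Eif2s3y, the eIF3 subunits, Iars and Yars were also named after their values were seen. Coordinates and exon lengths are from GENCODE M21 (GRCm38), promoters from RefSeq (GRCm38.p6), where 51 of 66 members matched. Mars, listed as Mars1 in newer annotation, is under its older name in the table. Values of 1 member are not reported here.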

Additional observations from a re-analysis of the deposited data

How the results depend on the processing

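Among the called members and the largest differences given where a class had no call, no direction reversed under any alternative. This does not cover members named for other reasons, such as Eif3f, Eif2s1 and Eif2ak3. By DESeq2 14 factors were called for Treg against Tconv, and so were the synthetases Vars, Sars, Mars, Aars, Wars and Yars. Its counts of factors and synthetases were 4 and 1 for aged Treg, 7 and 4 for aged Tconv and 3 and 5 for Treg labelled Dcaf1-deficient. For labelled Tconv they were 1 and 0. The factor count given below for Treg against Tconv without young Treg 2 and aged Treg 1 leaves out the synthetases. With a term for the title tag, Treg against Tconv kept 2 factors and 0 synthetases and aged Tconv 0 synthetases. RLE size factors, no low-count filter, the fit of Tconv alone and the replicate block each gave 1 synthetase in aged Tconv, and the Tconv fit 1 factor. Without young Treg 2 and aged Treg 1, the counts were 4 factors for Treg against Tconv, 5 and 4 for aged Tconv, and 4 and 5 for labelled Treg. Without the L3 libraries, an alternative chosen after seeing the data, they were 19 and 11 for Treg against Tconv, 5 and 8 for labelled Treg and 1 synthetase for labelled Tconv, and aged Tconv had 3 and 2 with Vars and Aars no longer called. Leaving out 1 library at a time, factors called ranged from 2 to 14 and synthetases from 1 to 8 for Treg against Tconv, 0 to 2 and 0 to 1 for aged Treg, 0 to 8 and 0 to 4 for aged Tconv and 0 to 2 factors for labelled Treg, and members from 0 to 1 for age by cell type. Where an arm fell to 1 library, it was assumed to vary like the other groups. All genes called ranged from 5.02 to 30.9% for Treg against Tconv and from 0 to 24% for aged Tconv over the same fits. No share of all genes is given here for Treg against Tconv or aged Tconv without young Treg 2 and aged Treg 1, or without the L3 libraries. The same holds for aged Tconv with the tag term, RLE size factors, no filter, the replicate block or Tconv alone. It also holds for the ranges of aged Treg, labelled Treg and age by cell type when 1 library was left out. The member counts of these comparisons in those fits therefore cannot be read as a change particular to the members. The cause of the changes in counts was not tested.

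Replicate numbers did not pair the samples: over 15 pairs of groups the correlation of same-numbered deviations was -0.656 to 0.677, above 0.1 in 4. With the replicate block Aars lost its call in Treg against Tconv and in aged Tconv. Groups of 2 limit what could be called, and levels of a few CPM, such as Mars, rest on few counts.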
